A study of Rattus norvegicus with 14 samples.

Results

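Collagens and laminins are secreted as trimers of separately encoded chains, and each row of the gene count table whose symbol names such a chain was taken as a member. The rule takes the symbols Col or Lam followed by a type and a chain, and 31 of the 16816 genes of the table are described, 25 collagen chains and 6 laminin chains. Basement membrane chains (the laminins and collagen types IV, XV and XVIII) made up 11 of them, fibrillar collagen chains (types I, II, III, V, XI and XXVII here) 10, and the remaining collagens 10. RNA-seq was performed on PCCL3 cells, a rat thyroid follicular cell line, that had been stably transfected with Myc-tagged human PAX8-PPARG fusion protein (PPFP cells) or with the empty vector (EV cells). Both were grown in serum with thyrotropin, insulin and hydrocortisone. Pioglitazone, which activates PPARG, was given at 1 μM for 16 hours, and cells without it received vehicle. The 4 groups were EV cells without pioglitazone, EV cells with pioglitazone, PPFP cells without pioglitazone and PPFP cells with pioglitazone, each with 3 libraries. PPFP was expressed from a transfected vector in a stable line, so that a difference between the cell lines cannot be told apart from a difference between those particular transfected lines.

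A thyroid follicle is a sheet of epithelial cells that rests on a basement membrane. In that membrane a network of type IV collagen and a network of laminin trimers, each with an alpha, a beta and a gamma chain, are linked by nidogen and perlecan, and cells hold on to it through integrins. Fibrillar collagens build the ropes of the surrounding stroma and are made mainly by fibroblasts, while other types anchor, cap or link these structures or span the cell membrane.

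Total counts on genes were between 23724703 and 35240176 per library. Levels are given as CPM, which are counts relative to the TMM-scaled total of their library, in the order of replicates 1, 2 and 3, and are compared only between groups for the same gene or the same list because transcript lengths were not used here. All 9 thyrocyte markers examined were detected. Of the marker lists of other cell types, 4 of 6 fibroblast markers, 3 of 5 endothelial markers and all 3 C cell markers had at most 3 counts in every library, and the fibroblast markers Dcn and Lum had no count at all. The same held for 2 of 4 leukocyte markers, whose list summed to between 0.536 and 1.08 CPM in EV cells and between 0.881 and 1.49 CPM in PPFP cells. It also held for 1 of 4 smooth muscle and pericyte markers, Rgs5, which had no count, and that list summed to between 7.43 and 10.3 CPM across the libraries. Nearly all of the summed fibroblast list came from Pdgfra. That sum was between 20.2 and 22.7 CPM in EV cells with or without pioglitazone, between 19.0 and 28.6 CPM in PPFP cells without it and between 25.1 and 32.2 CPM in PPFP cells with it. The thyrocyte list summed to between 10161 and 14101 CPM in EV cells, to between 13335 and 14042 CPM in PPFP cells without pioglitazone and to between 9996 and 10186 CPM in PPFP cells with it. The part of these shifts in the results below was not tested.

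The promoters of members whose levels moved are shown first, because type IV chains are encoded in pairs that are read outwards from a shared region. Promoters of 300 bases, from 250 bases before to 50 after a gene's start, were found for 25 of the 31 members in the RefSeq annotation of the rat GRCr8 assembly. Col4a3 and Col4a4, which were both lower in PPFP cells with pioglitazone than in EV cells with it, lie head to head on chromosome 9. Their starts are 413 bases apart and their windows share 88 bases. The Col4a3 window is chr9:91323740-91324039 on the plus strand and the Col4a4 window is chr9:91323528-91323827 on the minus strand. Col5a1 (chr3:31606630-31606929, plus strand) is the fibrillar chain that fell the most, and Col7a1 (chr8:118483114-118483413, plus strand) is the collagen that rose the most. Capitals mark matches, on either strand, to the PPAR core motif AGGTCA and to the GC box GGGCGG.
Col4a3: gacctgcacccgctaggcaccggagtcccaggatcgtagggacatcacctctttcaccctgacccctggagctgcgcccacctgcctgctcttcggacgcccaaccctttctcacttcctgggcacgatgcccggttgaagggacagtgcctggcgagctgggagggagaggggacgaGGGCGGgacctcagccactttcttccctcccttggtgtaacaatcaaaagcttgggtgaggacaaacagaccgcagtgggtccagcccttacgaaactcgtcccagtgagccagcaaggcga
Col4a4: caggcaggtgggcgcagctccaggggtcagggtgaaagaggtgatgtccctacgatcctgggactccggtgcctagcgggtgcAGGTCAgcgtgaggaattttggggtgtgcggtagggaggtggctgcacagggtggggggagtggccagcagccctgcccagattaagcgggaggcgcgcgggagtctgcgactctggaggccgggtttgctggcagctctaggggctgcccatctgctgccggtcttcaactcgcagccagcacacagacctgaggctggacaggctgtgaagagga
Col5a1: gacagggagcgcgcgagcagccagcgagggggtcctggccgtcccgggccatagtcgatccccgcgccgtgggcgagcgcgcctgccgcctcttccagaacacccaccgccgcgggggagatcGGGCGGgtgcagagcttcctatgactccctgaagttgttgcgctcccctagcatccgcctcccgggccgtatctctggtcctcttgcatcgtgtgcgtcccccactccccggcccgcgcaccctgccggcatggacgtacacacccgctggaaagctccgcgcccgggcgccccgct
Col7a1: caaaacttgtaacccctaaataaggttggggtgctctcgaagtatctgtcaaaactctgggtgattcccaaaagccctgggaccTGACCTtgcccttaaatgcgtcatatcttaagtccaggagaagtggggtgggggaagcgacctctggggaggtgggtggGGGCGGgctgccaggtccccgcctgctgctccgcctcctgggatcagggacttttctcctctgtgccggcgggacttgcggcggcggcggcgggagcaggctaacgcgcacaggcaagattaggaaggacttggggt

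In the Col4a4 and Col7a1 windows there was 1 match each to AGGTCA, and these were the only matches among the 25 members, against 15.7% of all 27457 rat promoters. The Col4a4 match lies at the edge of the Col4a3 window, which starts 1 base inside it. That window opens with gacct, the same site on the other strand without its first letter. Col4a3 therefore lacks this match only because of where its window was cut. The direct repeat AGGTCANAGGTCA, the arrangement that PPARG and RXR bind together, was found in 0 members and in 0.0583% of all promoters. The PAX8 core motif GTCATGC was found in 1 member, Col15a1, and in 1.78% of all promoters. GGGCGG was found in 15 members, and in 34.9% of all promoters, while TATAAA was found in 3 members and in 14.3% of all. Motifs were searched as these letters on both strands, and AGGTCA also lies within the direct repeat. Such a match describes letters in the window and does not show binding.

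Detection of the 31 members was as follows. In every library, 7 members had at most 3 counts, namely Col11a1, Col14a1, Col15a1, Col1a2, Col3a1, Col5a2 and Col9a1, and Col3a1 had none. Col1a2 is the partner of Col1a1 in type I collagen and Col5a2 is the partner of Col5a1 in type V collagen. Some partner chains, among them Col4a2, Col4a5, Col6a1, Col6a3, Lama3 and Lamb1, have no row in the count table under these symbols. Their levels are therefore not known here. Col23a1 and Lamc3 were also too low for any fit, which left 22 members in at least 1 of the fits and 9 in none. At these depths 3 counts correspond to between 0.0810 and 0.127 CPM, so a level under that was not distinguishable from absence. The filter on low counts keeps a gene that is high in only 1 of the groups compared, so the counts below are over members that passed it and not over all 31.

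The first comparison, PPFP cells versus EV cells without pioglitazone, asks which chains differ with the fusion protein alone. Of 21 members tested, 3 were higher and 5 were lower in PPFP cells (adjusted p under 0.05 in edgeR's quasi-likelihood test and fold change above 2). Among all 10264 genes tested, 7.27% were called higher and 7.31% lower. The 3 that rose were Col7a1, Lama1 and Lamb3, and the 5 that fell were Col5a1, Col13a1, Col8a1, Col11a2 and Lama5. At an adjusted p under 0.05 with any fold change, 5 were higher and 7 lower, while 45.2% of all genes passed that limit. For 12 of the 21 members the PPFP and EV libraries did not overlap, as for 56.0% of all genes. The median log2 fold change was -0.64 over the tested members and 0.00 over all genes. Of the basement membrane chains 2 were called higher and 1 lower of 9, of the fibrillar chains 0 and 2 of 6, and of the others 1 and 2 of 6. With a library left out, 1 to 3 basement membrane chains and 1 or 2 fibrillar chains were called lower and 1 or 2 of the others higher. Without EV replicate 3 there were 3 basement membrane chains and 8 members in all called lower, among them Col9a2, which was not in the main fit. Without EV replicate 1 or 2 or PPFP replicate 1 or 3 there was 1 fibrillar chain. In bulk RNA, fewer cells that express a chain and less of its RNA per cell cannot be told apart.

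With pioglitazone in both cell lines, 21 members were tested and 4 were higher and 9 lower in PPFP cells. Among all genes tested, 9.30% were called higher and 10.4% lower. All 8 members called without pioglitazone were called in the same direction with it, and Lamb2, Col17a1, Col2a1, Col4a3 and Col4a4 were called only with it, which is no test of a difference. With any fold change 6 were higher and 11 lower (52.7% of all genes), and 17 of 21 did not overlap between the cell lines (62.9% of all genes). The median log2 fold change was -0.98 over the members and 0.01 over all genes. Basement membrane chains were called higher in 2 and lower in 4 of 9, fibrillar chains in 0 and 3 of 6, and the others in 2 and 2 of 6. Without replicate 3 of EV or of PPFP cells, 4 of the others were called lower, among them Col16a1 and Col9a2, and Col9a2 was not in the main fit.

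**Figure D1:**
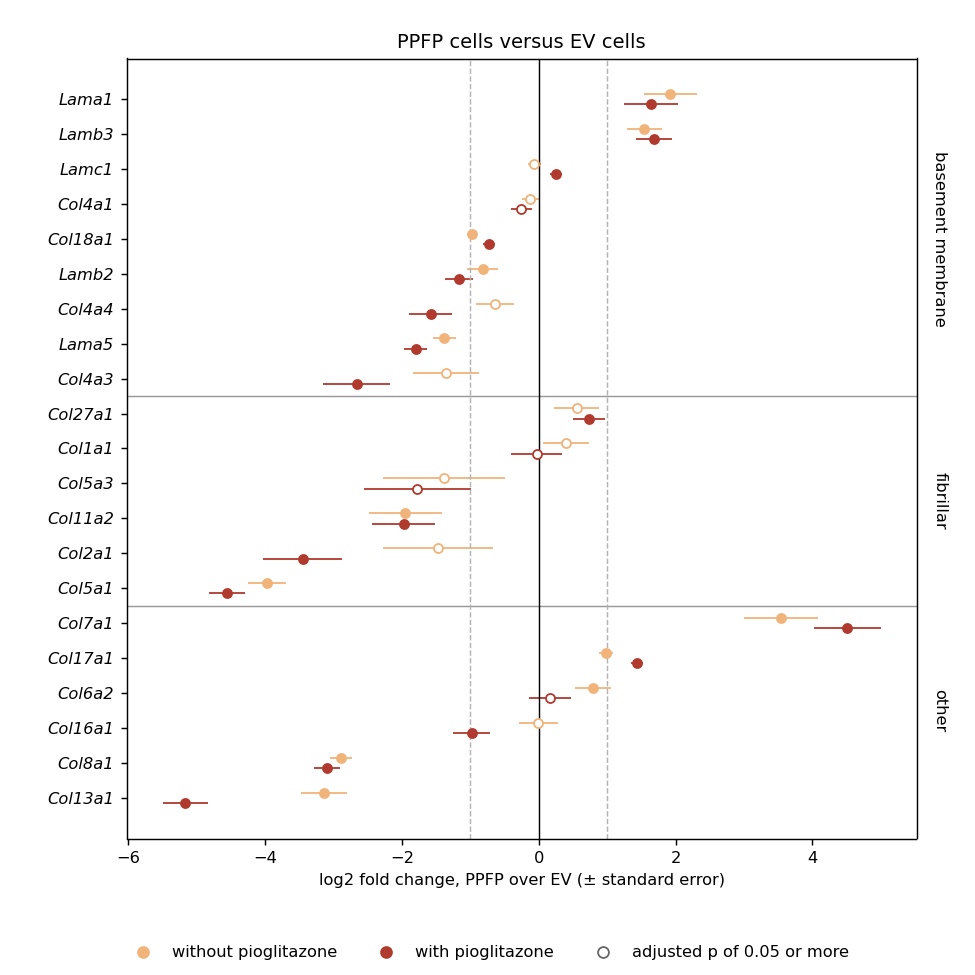
Log2 fold change of each tested member in PPFP cells over EV cells, with its standard error, without (orange) and with (red) pioglitazone. Filled points have an adjusted p under 0.05, dashed lines mark a fold change of 2, and the classes are separated by grey lines. Col5a1, Col8a1 and Col13a1 lie far to the left in both comparisons and Col7a1 far to the right, and the red point of Col13a1 is a fitted value for a group at the floor.

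Among the basement membrane chains, Lama1, the alpha chain typical of the early embryonic basement membrane, was measured at 9.51, 8.84 and 21.6 CPM in EV cells without pioglitazone. In PPFP cells it was 35.8, 41.3 and 71.5 CPM, above every EV library. The log2 fold change was 1.93 (SE 0.39, adjusted p = 0.0055 in edgeR's quasi-likelihood test). With pioglitazone Lama1 was 8.34, 7.10 and 19.7 CPM in EV cells and 30.5, 30.3 and 46.4 CPM in PPFP cells, where it rose by 1.65 on the log2 scale (SE 0.39, adjusted p = 0.011). In both cell lines and under both treatments the library numbered 3 held the highest level of Lama1.

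Lama5, the main alpha chain of mature epithelial basement membranes, moved the other way. It was measured at 295, 283 and 250 CPM in EV cells and at 79.4, 124 and 111 CPM in PPFP cells without pioglitazone. With pioglitazone the EV libraries had 304, 272 and 257 CPM and the PPFP libraries 60.1, 86.5 and 87.7 CPM. PPFP cells were lower throughout, with no overlap, and the log2 fold change was -1.38 without (SE 0.17, adjusted p = 0.00056) and -1.80 with pioglitazone (SE 0.17, adjusted p = 0.00013).

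Lamb2, a beta chain that joins Lama5 in epithelial laminin, was 288, 290 and 187 CPM in EV cells and 106, 169 and 153 CPM in PPFP cells without pioglitazone. The groups did not overlap, and the log2 fold change of -0.82 (SE 0.23, adjusted p = 0.022) was under the limit of a 2-fold change, and past it without EV replicate 3 (-1.01, adjusted p = 0.0042). It did not pass the test without EV replicate 1 or 2 or PPFP replicate 3 (adjusted p = 0.077, 0.068 and 0.051). With pioglitazone Lamb2 was 308, 274 and 205 CPM in EV cells and 86.8, 128 and 128 CPM in PPFP cells, and fell past that limit, by 1.17 on the log2 scale (SE 0.21, adjusted p = 0.0027). Without PPFP replicate 1 the change was -0.99, just inside the limit. Lamc1, the gamma chain that most laminin trimers share, was 359, 362 and 310 CPM in EV cells and 341, 320 and 312 CPM in PPFP cells without pioglitazone, where the groups overlapped (log2 fold change -0.07, adjusted p = 0.61). With pioglitazone Lamc1 was 364, 345 and 320 CPM in EV cells and 424, 397 and 383 CPM in PPFP cells, with no overlap (0.25, SE 0.08, adjusted p = 0.038). It did not pass the test with each of these 6 libraries left out in turn (adjusted p between 0.055 and 0.14), nor with library size alone (0.12, adjusted p = 0.29).

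Lamb3 encodes the beta chain of the laminin of hemidesmosomes, the junctions that fix epithelia of skin and mucosa to their basement membrane. Lamb3 was 2.58, 3.65 and 2.26 CPM in EV cells and 5.94, 9.72 and 8.82 CPM in PPFP cells without pioglitazone (log2 fold change 1.55, SE 0.26, adjusted p = 0.0024). With pioglitazone it was 3.11, 3.20 and 2.05 CPM against 6.35, 10.7 and 9.51 CPM (log2 fold change 1.69, SE 0.26, adjusted p = 0.0015). No EV library reached the lowest PPFP library in either comparison. Lamc3, a further gamma chain, had between 0 and 8 counts per library and was not tested.

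Type IV collagen is the network former of basement membranes, as a ubiquitous trimer with Col4a1 and as a trimer with Col4a3 and Col4a4 that is known from the glomerulus, the lung and the cochlea. Col4a1 was abundant, at 2529, 2530 and 1972 CPM in EV cells and 2077, 2213 and 2096 CPM in PPFP cells without pioglitazone. The groups overlapped, and the log2 fold change was -0.12 (SE 0.12, adjusted p = 0.46). With pioglitazone Col4a1 was 2668, 2753 and 1938 CPM in EV cells against 1853, 2158 and 2046 CPM in PPFP cells, again with overlap (log2 fold change -0.25, SE 0.15, adjusted p = 0.21).

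Col4a3 was 33.9, 36.9 and 13.3 CPM in EV cells and 5.36, 16.3 and 10.8 CPM in PPFP cells without pioglitazone. PPFP replicate 2 lay above EV replicate 3, and the log2 fold change of -1.36 (SE 0.48, adjusted p = 0.052) did not pass the test. The adjusted p was 0.0016 with the exact test, 0.0095 without EV replicate 3 and 0.033 without PPFP replicate 2. With pioglitazone Col4a3 was 31.7, 35.1 and 13.3 CPM in EV cells and 1.89, 5.00 and 5.47 CPM in PPFP cells, with no overlap, and fell by 2.66 on the log2 scale (SE 0.49, adjusted p = 0.0031).

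Col4a4, encoded next to it, had 6.60, 6.43 and 3.46 CPM in EV cells and 3.05, 3.73 and 3.67 CPM in PPFP cells without pioglitazone (log2 fold change -0.64, SE 0.28, adjusted p = 0.095). With pioglitazone it had 7.05, 6.94 and 3.27 CPM in EV cells and 1.81, 1.87 and 1.99 CPM in PPFP cells, and fell by 1.58 (SE 0.31, adjusted p = 0.0045). EV replicate 3 was the lowest EV library for both chains under both treatments.

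Col18a1, which carries heparan sulfate in basement membranes and yields endostatin, was measured at 815, 745 and 819 CPM in EV cells and 396, 404 and 396 CPM in PPFP cells without pioglitazone. These groups were tight and far apart, yet the log2 fold change of -0.97 (SE 0.08, adjusted p = 6.6e-05) was just under the limit of a 2-fold change, which it passed without EV replicate 2 (-1.01). With pioglitazone it was 819, 710 and 821 CPM against 480, 459 and 458 CPM (log2 fold change -0.72, SE 0.09, adjusted p = 0.00046).

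**Figure D2:**
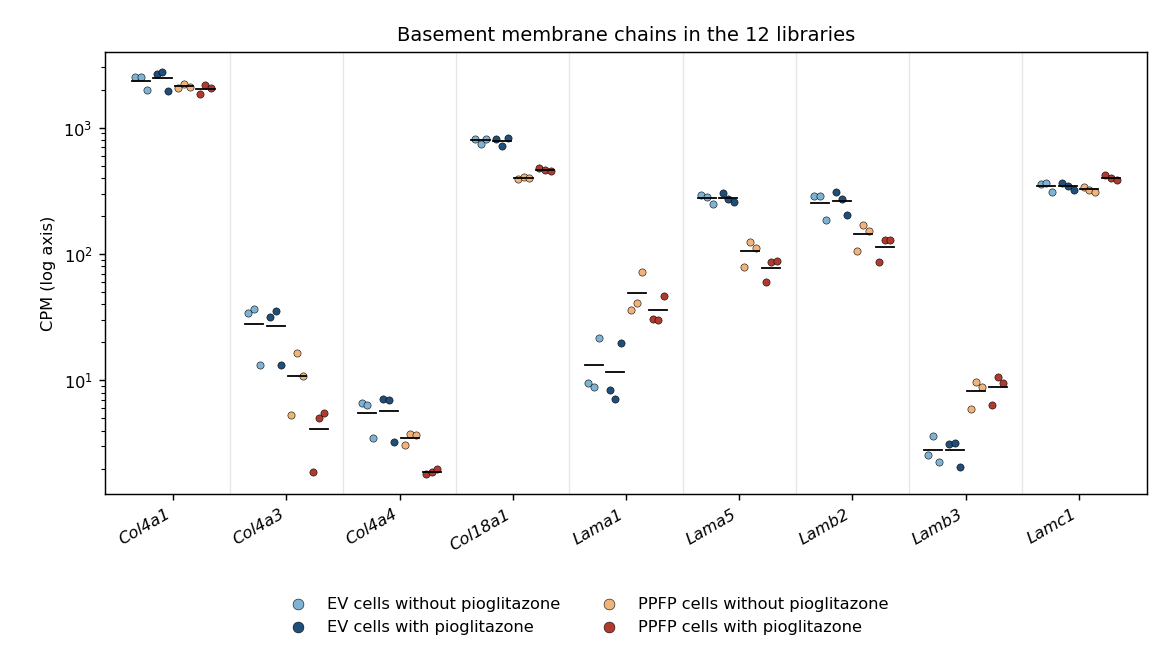
CPM of the 9 basement membrane chains that entered a fit, on a log axis, 1 point per library and a bar for the mean of each group. Lama1 and Lamb3 are higher and Col18a1, Lama5 and Lamb2 lower in PPFP cells in both treatments with no overlap, Col4a3, Col4a4 and Lamc1 separate from EV cells only with pioglitazone, and Col4a1 overlaps in both.

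Of the fibrillar chains, Col5a1, which in type V collagen sets the diameter of type I fibrils, changed the most. It was 103, 78.9 and 89.9 CPM in EV cells and 3.30, 7.39 and 6.37 CPM in PPFP cells without pioglitazone, and 101, 69.1 and 94.0 CPM against 2.42, 3.92 and 4.57 CPM with it. Every EV library lay far above every PPFP library. The log2 fold change was -3.97 without (SE 0.28, adjusted p = 3.9e-05) and -4.56 with pioglitazone (SE 0.26, adjusted p = 1.7e-05). Its partner Col5a2 had 1 count in all libraries together, and Col5a3, a further chain of type V, was between 0.323 and 1.94 CPM in EV cells and between 0 and 0.702 CPM in PPFP cells, with no call (adjusted p = 0.24 without and 0.094 with pioglitazone). With pioglitazone the exact test called Col5a3 lower (adjusted p = 0.0090), as did the fit without EV replicate 3 (0.025).

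Col11a2, a chain of the cartilage type XI collagen, was 12.4, 12.8 and 3.84 CPM in EV cells and 1.32, 3.81 and 2.28 CPM in PPFP cells without pioglitazone. EV replicate 3 was almost level with PPFP replicate 2. The log2 fold change was -1.95 (SE 0.53, adjusted p = 0.020), and the adjusted p rose to between 0.056 and 0.067 without EV replicate 1 or 2 or PPFP replicate 1 or 3. With pioglitazone Col11a2 was 11.7, 10.9 and 4.38 CPM in EV cells and 1.21, 2.54 and 2.98 CPM in PPFP cells (log2 fold change -1.97, SE 0.46, adjusted p = 0.0091).

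Col2a1, the chain of cartilage fibrils, was low. Its counts were 51, 32 and 20 in EV cells and 0, 24 and 8 in PPFP cells without pioglitazone, which overlapped (log2 fold change -1.47, SE 0.80, adjusted p = 0.17). With pioglitazone the counts were 72, 31 and 20 against 2, 2 and 5, with no overlap, a fall of 3.45 on the log2 scale (SE 0.58, adjusted p = 0.0021). The size of this fall rests on few PPFP counts, and Col2a1 passed the filter through its EV libraries. Col27a1, a fibrillar chain of developing cartilage, was the 1 fibrillar chain that was higher in PPFP cells at an adjusted p under 0.05. It was 54.0, 61.6 and 33.5 CPM in EV cells and 65.4, 87.7 and 90.2 CPM in PPFP cells with pioglitazone (log2 fold change 0.74, SE 0.24, adjusted p = 0.034), and 50.3, 56.5 and 28.6 against 40.9, 86.8 and 68.9 CPM without it (0.55, SE 0.33, adjusted p = 0.21). With pioglitazone the adjusted p was between 0.080 and 0.098 without EV replicate 1 or PPFP replicate 2 or 3. The difference between these fold changes did not pass the test (0.16, adjusted p = 0.96). Col1a1 lay between 0.869 and 3.55 CPM in the 12 libraries and had no call.

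In the remaining class, Col7a1, which forms the anchoring fibrils that tie basement membranes to the stroma, rose the most. It was 2.34, 1.61 and 1.10 CPM in EV cells and 7.49, 29.3 and 21.4 CPM in PPFP cells without pioglitazone. PPFP replicate 1 was the lowest PPFP library and was still above every EV library. The log2 fold change was 3.54 (SE 0.53, adjusted p = 0.0014). With pioglitazone Col7a1 was 2.24, 1.41 and 0.718 CPM in EV cells and 17.7, 38.4 and 43.9 CPM in PPFP cells (log2 fold change 4.51, SE 0.49, adjusted p = 0.00026).

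Col17a1, the transmembrane collagen of hemidesmosomes, was 25.7, 26.0 and 22.5 CPM in EV cells and 46.7, 49.4 and 48.8 CPM in PPFP cells without pioglitazone (log2 fold change 0.99, SE 0.10, adjusted p = 0.00021), just under the limit of a 2-fold change and past it without EV replicate 1 or 2 or PPFP replicate 1 (1.02 to 1.04). With pioglitazone it was 27.0, 24.7 and 23.8 CPM in EV cells and 70.9, 64.3 and 65.7 CPM in PPFP cells, past that limit (1.44, SE 0.09, adjusted p = 1.9e-05).

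Col8a1, a network former best known from vessels and the cornea, was 54.6, 51.7 and 39.1 CPM in EV cells and 7.12, 6.14 and 6.16 CPM in PPFP cells without pioglitazone (log2 fold change -2.89, SE 0.16, adjusted p = 1.6e-05). With pioglitazone the levels were 50.8, 51.8 and 33.7 CPM against 5.14, 5.07 and 5.47 CPM (-3.09, SE 0.19, adjusted p = 2.2e-05). The PPFP libraries of each treatment lay within a narrow band far under the EV libraries. Col13a1, a transmembrane collagen of cell adhesion sites, had counts of 60, 77 and 49 in EV cells and 6, 8 and 4 in PPFP cells without pioglitazone (log2 fold change -3.14, SE 0.33, adjusted p = 0.00026). With pioglitazone they were 75, 60 and 49 in EV cells and 1, 1 and 2 in PPFP cells, which were at the floor, so that PPFP cells were at least 17.6-fold lower (adjusted p = 2.5e-05).

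Col6a2, a chain of the beaded type VI filaments, was 2.41, 2.88 and 1.61 CPM in EV cells and 3.12, 4.66 and 4.05 CPM in PPFP cells without pioglitazone, with no overlap (log2 fold change 0.79, SE 0.27, adjusted p = 0.045). The adjusted p was between 0.083 and 0.13 without EV replicate 1 or 3 or PPFP replicate 2 or 3. With pioglitazone the libraries overlapped, at 1.49, 2.91 and 1.90 CPM against 1.70, 2.46 and 2.72 CPM, and Col6a2 did not pass the test (0.17, SE 0.31, adjusted p = 0.67). Col16a1, which decorates fibrils at the border of basement membranes, did not pass the test without pioglitazone, at 66.8, 51.9 and 42.2 CPM in EV cells and 31.8, 67.5 and 59.0 CPM in PPFP cells (log2 fold change 0.00, SE 0.29, adjusted p = 0.99). With pioglitazone it was 63.1, 49.0 and 47.0 CPM against 16.1, 30.2 and 32.7 CPM (-0.98, SE 0.27, adjusted p = 0.018), and without EV replicate 2 or 3 or PPFP replicate 2 or 3 it passed the limit of a 2-fold change (-1.19 to -1.03). It no longer passed the test without EV replicate 1 (-0.85, adjusted p = 0.063), and was -0.72 without PPFP replicate 1 (adjusted p = 0.010). The difference between the fold changes of Col16a1 without and with pioglitazone did not pass the test (-0.99, adjusted p = 0.36). Its value with a replicate block is given below. Col9a2 was between 0.0367 and 0.904 CPM in the 12 libraries and was not tested between the cell lines in the main fits. Without a replicate 3 it passed the filter and was called lower, as given above.

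**Figure D3:**
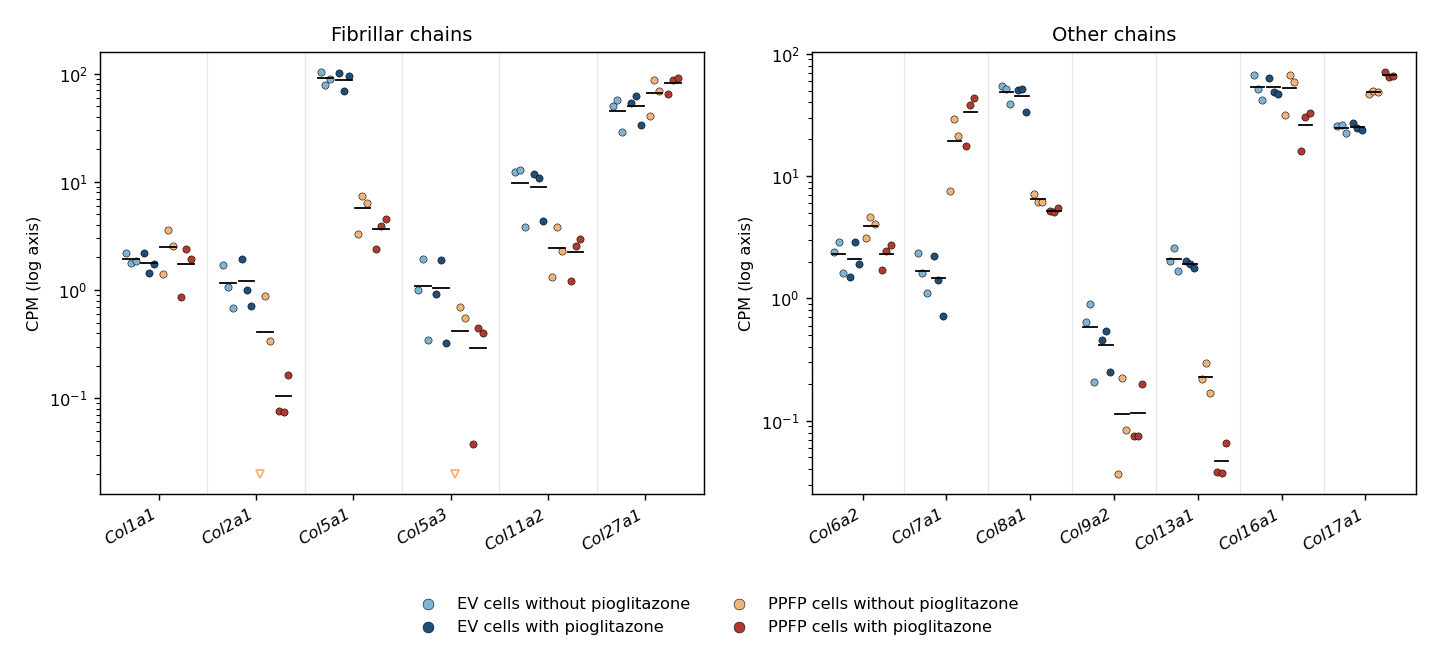
CPM of the fibrillar chains (left) and the other chains (right) that entered a fit, on log axes, 1 point per library and a bar for the mean of each group. Open triangles mark libraries with no count. Col5a1, Col8a1, Col11a2 and Col13a1 are lower and Col7a1 and Col17a1 are higher in PPFP than in EV cells in both treatments, with no overlap.

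The third comparison asks what pioglitazone does in cells that express PPFP, and it shares its libraries with the comparisons between the cell lines. In PPFP cells with versus without pioglitazone, 0 of 19 members tested were called, where 1.11% of all genes were called higher and 1.31% lower. By unadjusted p, 8 members and 28.8% of all genes were under 0.05, and DESeq2 called 2 members lower, Col4a3 and Col16a1 (1.13% of all genes were higher and 1.42% lower), and edgeR's exact test called Col4a3 lower (1.28% and 1.69% of all genes). At an adjusted p under 0.05 and any fold change there were 4 members (14.8% of all genes), of which 3 were higher and 1 lower. This count was 7 without PPFP replicate 1 without pioglitazone, 2 and 1 without replicate 2 and 3 of that group, and 1 without PPFP replicate 2 with pioglitazone. For 6 of 19 members the groups did not overlap, as for 34.1% of all genes.

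Those 4 members were Col17a1, Lamc1, Col18a1 and Col4a4. Col17a1 went from 46.7, 49.4 and 48.8 CPM to 70.9, 64.3 and 65.7 CPM (log2 fold change 0.47, SE 0.06, adjusted p = 0.0044 in edgeR's quasi-likelihood test). Lamc1 went from 341, 320 and 312 CPM to 424, 397 and 383 CPM (0.31, SE 0.05, adjusted p = 0.012), and Col18a1 from 396, 404 and 396 CPM to 480, 459 and 458 CPM (0.23, SE 0.04, adjusted p = 0.015). All 3 rose by well under 2-fold, with every library with pioglitazone above every library without it. Col4a4 went from 3.05, 3.73 and 3.67 CPM to 1.81, 1.87 and 1.99 CPM and fell by 0.88 on the log2 scale (SE 0.15, adjusted p = 0.012).

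Libraries of 1 cell line that bear the same replicate number deviated together from their group means, and within the cell lines the pioglitazone comparisons were therefore also fitted with the replicate number as a block. In PPFP cells this fit called 1 of 19 members, Col4a3, while 1.36% of all genes were called higher and 1.84% lower. Col4a3 was 5.36, 16.3 and 10.8 CPM without and 1.89, 5.00 and 5.47 CPM with pioglitazone. The libraries of the groups overlapped but each pair fell, by between 0.98 and 1.71 on the log2 scale, and the fold change was -1.38 with an adjusted p of 9.6e-10 with the block and 0.14 without it. With any fold change the block brought 15 members under an adjusted p of 0.05, 5 higher and 10 lower, where 51.6% of all genes passed.

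Beside Col4a3, the members lower with pioglitazone in the blocked fit were Col16a1, Col4a4, Col6a2, Col5a1, Col1a1, Lama1, Lama5, Lamb2 and Col8a1. Col16a1 fell in each pair by between 0.85 and 1.16 on the log2 scale, and its fitted fold change was just under the limit of 2-fold (adjusted p = 5.8e-13 with the block, 0.13 without). Col4a4 (-0.88, adjusted p = 2.5e-05) and Col6a2 (-0.78, adjusted p = 6.1e-05) also fell in each pair. The other 6 were between -0.63 for Col5a1 and -0.30 for Col8a1. Col7a1 and Col27a1 were among the 5 higher, and Col7a1 changed by 0.82 on the log2 scale (adjusted p = 9.8e-08 with the block, 0.40 without). Col13a1 and Col2a1 were not in this fit because of their low counts. Of the 19 members, Col4a1, Col11a2, Col5a3 and Lamb3 did not pass an adjusted p of 0.05 with or without the block.

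**Figure D4:**
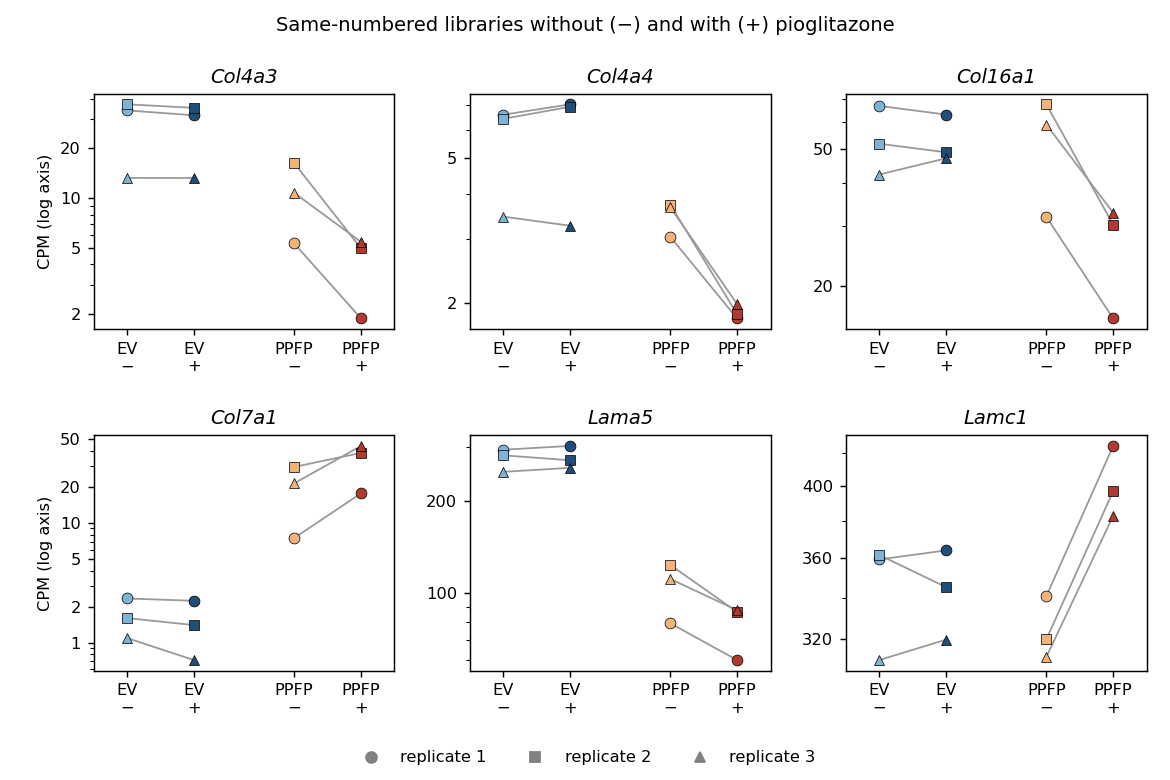
CPM of 6 members without (−) and with (+) pioglitazone, on log axes, with grey lines joining libraries of the same cell line and replicate number. In PPFP cells each of the 3 lines falls for Col4a3, Col4a4, Col16a1 and Lama5 and rises for Col7a1 and Lamc1.

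In EV cells with versus without pioglitazone, 0 of 22 members were called, and of all genes 0% were called higher, 0% lower and 0% at an adjusted p under 0.05. By unadjusted p, 0 members and 0.158% of all genes were under 0.05, and DESeq2 and the exact test called 0 as well. No member separated the groups, where 1.46% of all genes did. The log2 fold changes were between -0.46 for Col9a2 and 0.13 for Col27a1, and the median was -0.03. With the replicate block 0 members had an adjusted p under 0.05, where 0.00986% of all genes did and 0% were called in either direction.

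**Figure D5:**
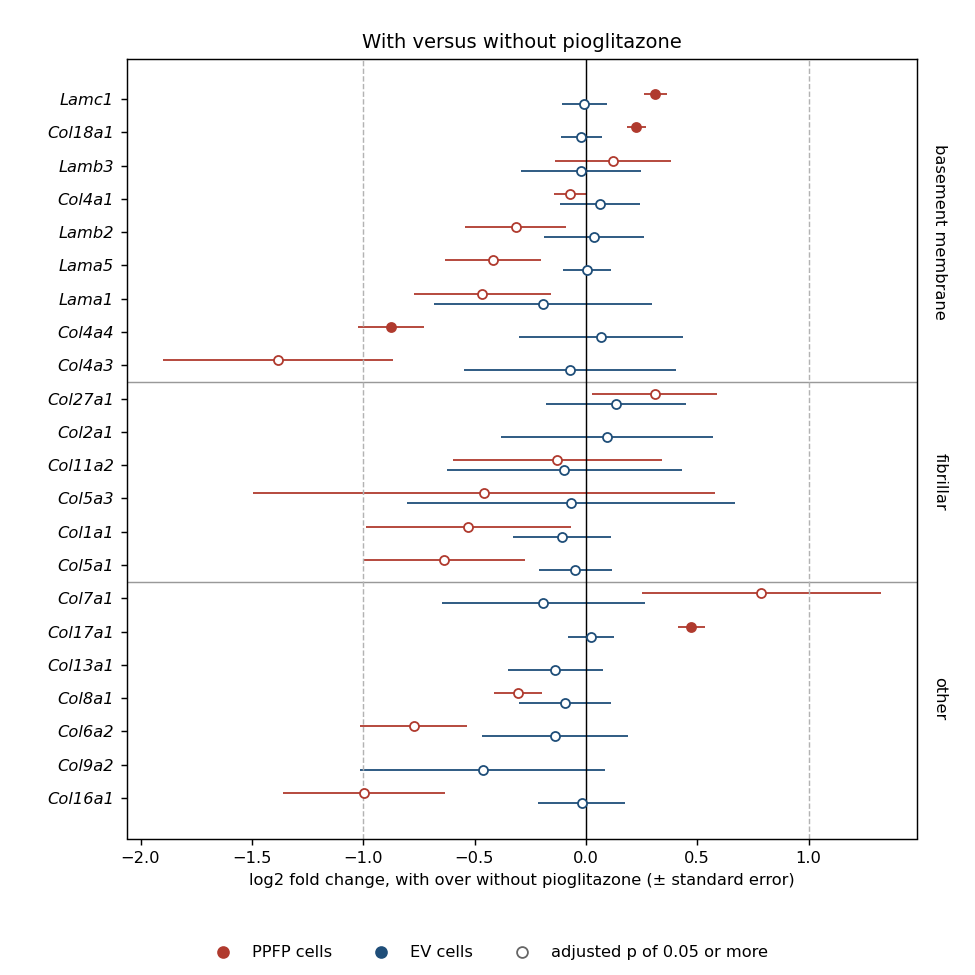
Log2 fold change of each tested member with over without pioglitazone, with its standard error from the fit without the replicate block, in PPFP cells (red) and EV cells (blue). Filled points have an adjusted p under 0.05 and dashed lines mark a fold change of 2. EV cells lie near 0, and in PPFP cells Col4a3, Col16a1 and Col4a4 lie farthest to the left.

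The difference between these responses was tested as an interaction over all 12 libraries. Of 22 members tested, 0 were called by edgeR's quasi-likelihood test, and 0 had an adjusted p under 0.05 with any fold change. Of all genes, 0.439% were called higher, 0.487% lower and 2.64% had an adjusted p under 0.05 with any fold change. By unadjusted p, 5 members and 13.3% of all genes were under 0.05, and DESeq2 called 0, where it called 0.601% of all genes higher and 0.725% lower.

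With the replicate number within each cell line as a block, 4 members were called for a difference in response. Of all genes, 0.973% were called higher, 1.59% lower and 34.3% had an adjusted p under 0.05 with any fold change. Col7a1 (1.02, adjusted p = 0.025) responded more positively in PPFP cells, but did not pass the test without the block (adjusted p = 0.75). Col4a3 (-1.33, adjusted p = 9.0e-06) responded more negatively, and again did not pass without the block (adjusted p = 0.55). The other 2 were Col13a1 and Col2a1, whose PPFP libraries held at most 8 and 24 counts and went down to 1 and 0, so that no fold change is given for them. Without the block their adjusted p was 0.076 and 0.59. Both passed the filter on low counts through their EV libraries and were not tested within PPFP cells. With the block and any fold change 12 of the 22 members passed. Col16a1 was among them, just under the limit of 2-fold (-0.998, adjusted p = 1.6e-06). So were Col4a4 (-0.95, adjusted p = 0.00058), Lama5 (-0.44, adjusted p = 3.5e-05) and Lamc1 (0.30, adjusted p = 0.00015). Without the block none of them passed, with adjusted p of 0.36, 0.40, 0.54 and 0.30 in the same order.

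The genes that make, join, bind and cut these chains were taken as 4 lists. Of 22 tested genes of collagen synthesis and crosslinking, 1 was called higher and 4 lower in PPFP cells without pioglitazone, and with pioglitazone 1 was higher and 5 lower of 23. Among all genes tested these shares were 7.27% and 7.31% without pioglitazone and 9.30% and 10.4% with it. Plod2, the lysyl hydroxylase that prepares collagen ends for crosslinking, had 242, 239 and 199 counts in EV cells and 2, 0 and 0 in PPFP cells without pioglitazone, at least 65.9-fold lower (adjusted p = 1.9e-05). P4ha3, a prolyl hydroxylase subunit, was 15.1, 13.8 and 11.1 CPM against 1.17, 0.665 and 0.929 CPM (log2 fold change -3.83, SE 0.24, adjusted p = 2.3e-05). Pcolce, which speeds removal of the fibrillar propeptide, was at least 33.1-fold lower (adjusted p = 0.00036). With pioglitazone Plod2 was at least 66.6-fold lower and Pcolce at least 31.7-fold lower. Without pioglitazone Fkbp10, a collagen chaperone, was 480, 456 and 459 CPM in EV cells against 927, 908 and 929 CPM in PPFP cells. It was the 1 gene called higher there (log2 fold change 1.01, SE 0.08, adjusted p = 5.2e-05). The median log2 fold change of this list was -0.43 without pioglitazone and -0.48 with it.

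Of 21 genes of this list tested in PPFP cells, 1 was called higher and 2 lower with pioglitazone, beside 1.11% and 1.31% of all genes, and the 2 were P4ha3 and Loxl3. Loxl3, a lysyl oxidase, went from 36.3, 34.9 and 34.8 CPM to 13.4, 15.4 and 16.3 CPM (log2 fold change -1.23, SE 0.09, adjusted p = 0.00075), and P4ha3 fell by 1.99 (SE 0.38, adjusted p = 0.017). Both were also called lower in the interaction, as the 2 of 23 tested, beside 0.487% of all genes (Loxl3 -1.22, adjusted p = 0.043, and P4ha3 -1.92, adjusted p = 0.037). Adamts14, a procollagen peptidase, went from 8, 11 and 7 counts to 31, 39 and 39 counts and was the 1 gene of the list called higher (log2 fold change 1.96, SE 0.24, adjusted p = 0.0039). It was also the 1 gene of the list called higher between the cell lines with pioglitazone, where PPFP cells were at least 13.8-fold above EV cells.

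Of 11 tested basement membrane partners, 1 was called higher and 2 lower in PPFP cells without pioglitazone, and 5 higher and 3 lower of 12 with it, beside 7.27% and 7.31% of all genes without pioglitazone and 9.30% and 10.4% with it. Ntn1, netrin 1, whose fold resembles that of laminin short arms, had 3, 1 and 2 counts in EV cells and 160, 185 and 126 in PPFP cells without pioglitazone, at least 59.4-fold higher (adjusted p = 9.1e-06). Egfl6 and Fbln1 were the 2 called lower (log2 fold changes -2.66 and -2.03, adjusted p = 0.00097 and 0.020). With pioglitazone Nid2, a nidogen, was 208, 170 and 225 CPM in EV cells and 446, 481 and 472 CPM in PPFP cells (log2 fold change 1.24, SE 0.12, adjusted p = 0.00014), Tinagl1 was also higher (1.29, SE 0.11, adjusted p = 8.2e-05), and agrin (Agrn) was lower (-1.48, SE 0.16, adjusted p = 0.00028). In PPFP cells 1 of 11 partners tested was called for pioglitazone, where 1.11% of all genes were called higher and 1.31% lower. It was Frem2, a protein of the epithelial basement membrane, which rose by 1.94 (adjusted p = 0.014).

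Among 14 collagen and laminin receptors, 2 were called higher and 2 lower without pioglitazone, beside 7.27% and 7.31% of all genes. Itga1, the alpha chain of a receptor for collagen and laminin, was 5.22, 4.75 and 5.93 CPM in EV cells and 24.1, 27.5 and 27.0 CPM in PPFP cells (log2 fold change 2.33, SE 0.12, adjusted p = 1.2e-05). Itga7, the alpha chain of a laminin receptor known from muscle, was 0.268, 0.703 and 0.206 CPM against 38.1, 69.2 and 68.9 CPM (7.23, SE 0.43, adjusted p = 1.8e-05). Mrc2, a receptor that takes up collagen (-1.01), and Itga11 (-2.47), the alpha chain of a fibrillar collagen receptor, were lower (adjusted p = 0.00026 and 0.0059). With pioglitazone 2 receptors were called higher (Itga1 3.18 and Itga7 8.30) and 3 lower (Mrc2, Itga11 and Sdc4, a syndecan, at -1.60, -3.09 and -1.24), beside 9.30% and 10.4% of all genes. In PPFP cells 1 of 13 receptors tested was called for pioglitazone, beside 1.11% of all genes higher and 1.31% lower. It was Itgb4, the integrin beta chain of hemidesmosomes, which fell from 28.8, 42.3 and 40.5 CPM to 14.4, 17.9 and 19.6 CPM (-1.10, SE 0.19, adjusted p = 0.012).

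Of 12 tested matrix proteases and inhibitors, 2 were called higher and 5 lower without pioglitazone (7.27% and 7.31% of all genes), and 2 and 6 with it (9.30% and 10.4% of all genes). Mmp19 rose from 3.41, 3.75 and 3.12 CPM to 31.5, 39.1 and 37.6 CPM (log2 fold change 3.41, SE 0.14, adjusted p = 4.8e-06) and Mmp28 rose by 1.55 (SE 0.23, adjusted p = 0.0011). The membrane-bound Mmp15 and Mmp14 and the protease inhibitor Reck fell (-2.00, -1.13 and -1.15, adjusted p = 1.1e-05, 0.00016 and 0.00025). With pioglitazone the inhibitor Timp2 was lower as well (-1.36, SE 0.08, adjusted p = 2.0e-05). In PPFP cells 0 of 11 tested genes of this list were called for pioglitazone by edgeR's quasi-likelihood test, while 5 had an unadjusted p under 0.05 (28.8% of all genes) and 3 were lower at an adjusted p under 0.05 with any fold change (14.8% of all genes in either direction). The median log2 fold changes of the partners, receptors and proteases without pioglitazone were 0.14, 0.02 and -0.84.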

How the data were processed

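RNA-seq was performed on 12 libraries of PCCL3 cells, 3 independent experiments for each of 4 groups. The authors aligned paired-end reads to rn4 with TopHat2 2.0.11 and counted reads per gene with HTSeq 0.6.1p1 in intersection-strict mode, and the deposited table holds these raw counts, not normalized or pooled. Whether counting used strand is not given in the sources used here. The versions are those of the submitters' processing notes. All libraries of 1 experiment shared their sequencing lanes.

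Counts were filtered with filterByExpr (minimum count 10), scaled by TMM (factors 0.926 to 1.05) and tested with edgeR 4.0.16 in R 4.3.3, by the quasi-likelihood test with Benjamini-Hochberg adjustment over all genes tested, on the 6 libraries compared. A gene was called where the fold change exceeded 2 at an adjusted p under 0.05. Where no other test is named, an adjusted p is from this one, and SE is the log2 fold change divided by the square root of F. A group with at most 3 counts in every library was taken as being at the floor, and bounds use the CPM of 3 counts per library and cover counting error only. The method was tested on simulated data. Alternatives used DESeq2 1.42.0, edgeR's exact test, other scalings and filters, all libraries in 1 fit, a replicate block and each library left out in turn. The rule matched 32 genes, of which 1 is not reported here. Members, gene lists and tests were chosen with earlier results of these data known, so they are not independent support for what those results showed. Full statistics are given for every called member, values for members with a smaller change and for chain partners, and up to 3 genes per direction of each list by adjusted p.

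Whether same-numbered libraries pair was checked by correlating how far each lay from its group's mean over genes. Between treatments this correlation was 0.743, 0.466 and 0.436 in PPFP cells and 0.532, 0.729 and 0.774 in EV cells, so the numbers were taken as pairs there. In PPFP cells replicates 2 and 3 also correlated with each other across treatments (0.536 and 0.349), so the numbers 2 and 3 are told apart less clearly. Between the cell lines it was between -0.380 and 0.317, so they were not. The ChIP-seq peak lists, in rn4, were not used here.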

Additional observations from a re-analysis of the deposited data

How the results depend on the processing

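No member's log2 fold change reversed where it or its alternative had an adjusted p under 0.05. Of 291 recomputed fold changes of called members, 286 were still called and 5 were not, and of 1254 of members not called, 32 were called. For PPFP cells with versus without pioglitazone the count of called members was 0, and it was 1 with the exact test (Col4a3), 1 with all 12 libraries in 1 fit (Col13a1, adjusted p = 0.016), 2 with DESeq2, 1 without a filter (Col13a1, adjusted p = 0.045), 1 with the replicate block (Col4a3) and 1 at a fold change above 1.5 (Col4a4). It was between 0 and 2 with a library left out, and 2 without PPFP replicate 1 without pioglitazone (Col4a3 and Col16a1). For the difference in response the count was 0, and it was 4 with the replicate block and 0 with the other settings tried. The cause was not tested. Between the cell lines the replicate block, whose numbers did not pair, called Col4a3 without pioglitazone (-1.34, adjusted p = 0.031) and Col16a1 with it (-1.02, adjusted p = 0.028), for 9 and 14 members. It changed no other call, but Col6a2 without and Lamc1 with pioglitazone no longer had an adjusted p under 0.05 (0.053 and 0.096). With a library left out, 7 to 11 members were called without and 12 to 16 with pioglitazone between the cell lines. Library size alone shifted the median of all genes with pioglitazone from 0.01 to -0.12 and changed the sign of 0 members, but it called Col18a1 (-1.05) and Col4a3 (-1.43, adjusted p = 0.047) without and Col16a1 (-1.11) with pioglitazone. PPFP peaks at the members, and their thresholds, were not run, because gene positions in rn4 were not used here. Members with few counts (Lamc3, Col2a1, Col13a1, Col5a3, Col9a2) are limited by depth.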
